A study of Mus musculus with 108 samples.

Results

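In the livers of 12 months old mice kept on caloric restriction, 77573 autosomal bins of 200 bp were in chromatin state 7 while being in another state in both standard diet groups, at 3 and at 12 months of age. They were chosen by those labels alone and make up 0.63% of the 12313718 autosomal bins, 15.5 Mb in all. Merging adjacent bins gave 7061 stretches. Livers came from inbred C57BL/6 female mice, were fixed in formalin and embedded in paraffin, and were profiled by ChIP-seq for H3K4me3, H3K27me3, H3K27ac and H3K4me1. The groups used here were SD 3m and SD 12m, fed standard diet until 3 and 12 months of age, and CR 12m, fed 30% fewer calories from 3 months on and killed at 12 months. There were 30 SD 3m libraries, 29 of SD 12m and 29 of CR 12m. In SD 3m, SD 12m and CR 12m, H3K4me3 had 7, 8 and 5 of them, H3K27me3 had 7, 8 and 6, H3K27ac had 8, 7 and 9, and H3K4me1 had 8, 6 and 9. The libraries of a group were merged before chromatin states were assigned, so there is 1 segmentation per group, and no spread between mice is given for the values below. Libraries were not analysed singly here. The number of H3K4me3 libraries behind CR 12m was the lowest of the 3 groups, the depth of the merged reads is unknown, and the part of either in these values was not tested.

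A chromatin state is a recurring combination of histone marks, learned by a hidden Markov model and assigned to each bin in turn. In state 7 H3K4me3 is present at a low level, H3K27me3 hardly at all, and H3K27ac and H3K4me1 are missing. It was annotated by the authors as Repeats/cLAD, where cLAD stands for domains attached to the nuclear lamina whatever the cell type. H3K4me3 is best known from active promoters, H3K4me1 and H3K27ac from enhancers, and H3K27me3 is deposited by Polycomb repressive complex 2 at silent developmental genes. States 1 and 2 are the promoter states, states 3 to 5 are enhancer-type states, state 6 is Polycomb repressed and state 8 carries none of the 4 marks.

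The bins in state 7 in CR 12m only were mostly AT-rich, CpG-poor sequence far from genes, and a small set had been in a promoter state in both SD groups. The middle bin of 2 of the longest stretches is printed first, chosen by position and not for its composition, at chr2:169878601-169878800 in an intron of Tshz2 and chr8:99804001-99804200 between genes. The bases before the transcription start site (TSS) in the TSS bins of Casp1 (chr9:5298401-5298516), Casp4 (chr9:5308801-5308848) and 6820408C15Rik (chr2:152415401-152415586) follow, as these TSS were in the active promoter state in both SD groups. All are from GRCm38.p6, the assembly that mm10 represents, on the + strand, with CpG dinucleotides in capitals.
Tshz2 intron: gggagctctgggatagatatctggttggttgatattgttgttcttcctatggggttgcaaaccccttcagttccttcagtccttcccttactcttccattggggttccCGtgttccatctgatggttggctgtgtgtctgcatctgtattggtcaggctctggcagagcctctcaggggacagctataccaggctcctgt
Chromosome 8 intergenic: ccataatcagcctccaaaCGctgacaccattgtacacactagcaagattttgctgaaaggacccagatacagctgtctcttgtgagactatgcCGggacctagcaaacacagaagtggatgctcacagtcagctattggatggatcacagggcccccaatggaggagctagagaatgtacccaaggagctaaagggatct
Casp1 before the TSS: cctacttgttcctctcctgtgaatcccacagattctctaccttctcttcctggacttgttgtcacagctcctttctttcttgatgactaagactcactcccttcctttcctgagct
Casp4 before the TSS: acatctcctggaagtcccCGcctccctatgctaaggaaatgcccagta
6820408C15Rik before the TSS: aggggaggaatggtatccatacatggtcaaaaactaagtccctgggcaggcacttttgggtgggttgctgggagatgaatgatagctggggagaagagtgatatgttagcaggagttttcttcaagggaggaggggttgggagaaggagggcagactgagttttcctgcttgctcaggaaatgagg
The intronic and the intergenic bin are 98% and 100% masked repeat and hold 1 and 2 CpG dinucleotides. Their own stretches are 16.3% and 52.4% masked repeat, and the set as a whole is 41.0%. At 51.5% and 49.5% G and C both bins are richer in G and C than the set as a whole, which had 38.0%. Of the promoter pieces, that of Casp4 holds 1 CpG and those of Casp1 and 6820408C15Rik hold 0. Across all bins found in CR 12m only, 42.5% had no CpG, against 29.9% of all autosomal bins.

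The labelled tissue was checked at marker genes. The TSS of 6 of 6 hepatocyte genes (Alb, Apoa1, Ttr, Apob, Hnf4a and Tat) were in states 1 to 4 in each of the 3 groups, and 0 of 3 genes of brain or muscle (Pax6, Neurod1 and Myod1) were in states 1 to 5 in any group. Of 12 genes that mark the other cells of the liver, 7 had an SD 3m TSS in states 1 to 5, and 5 did so in each of the 12 months groups. Among them Ptprc, the pan-leukocyte phosphatase CD45, was in state 5 in both SD groups and in state 8 in CR 12m. Adgre1, the macrophage marker F4/80, was in state 5 in SD 3m, in state 6 in SD 12m and in state 8 in CR 12m. Epcam (state 4 in SD 12m) was in state 8 in CR 12m too. Stab2 and Krt19 went the other way, from states 7 and 8 in SD 12m to state 4 in CR 12m.

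The autosomal coverage of state 7 was 1.92% for SD 3m, 11.9% for SD 12m and 4.35% for CR 12m. CR 12m had 535138 bins in state 7, of which SD 12m shared 84.3%, and the bins found in CR 12m only made up 14.5%. The same rule turned to SD 12m gave 957348 bins in state 7 there and in neither SD 3m nor CR 12m, which is 65.5% of its state 7 and 12.3 times as many bins. Turned to SD 3m it gave 58592 bins, 24.8% of its state 7. All 3 counts share the same segmentations, so they are not independent of each other. Each share also depends on how much state 7 the other 2 groups hold. Bins in state 7 in CR 12m only were fewer than bins in state 7 in SD 12m only on each of the 19 autosomes.

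Chromosomes differed in how many such bins they held. The share of bins was lowest on chromosome 19 (0.124%), had a median of 0.633% and was highest on chromosome 13 (0.907%). Chromosomes 3 (0.871%), 17 (0.808%) and 4 (0.802%) came next, and chromosome 11 (0.263%) was the second lowest. Set against all state 7 of CR 12m the order differed. Chromosome 1, with 6.61% of its bins in state 7 in CR 12m, had the lowest share found in CR 12m only (10.8%), and chromosome 15, with 2.71%, had the highest (23.96%). The range over chromosomes describes unevenness along the genome and not error between mice.

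**Figure D1:**
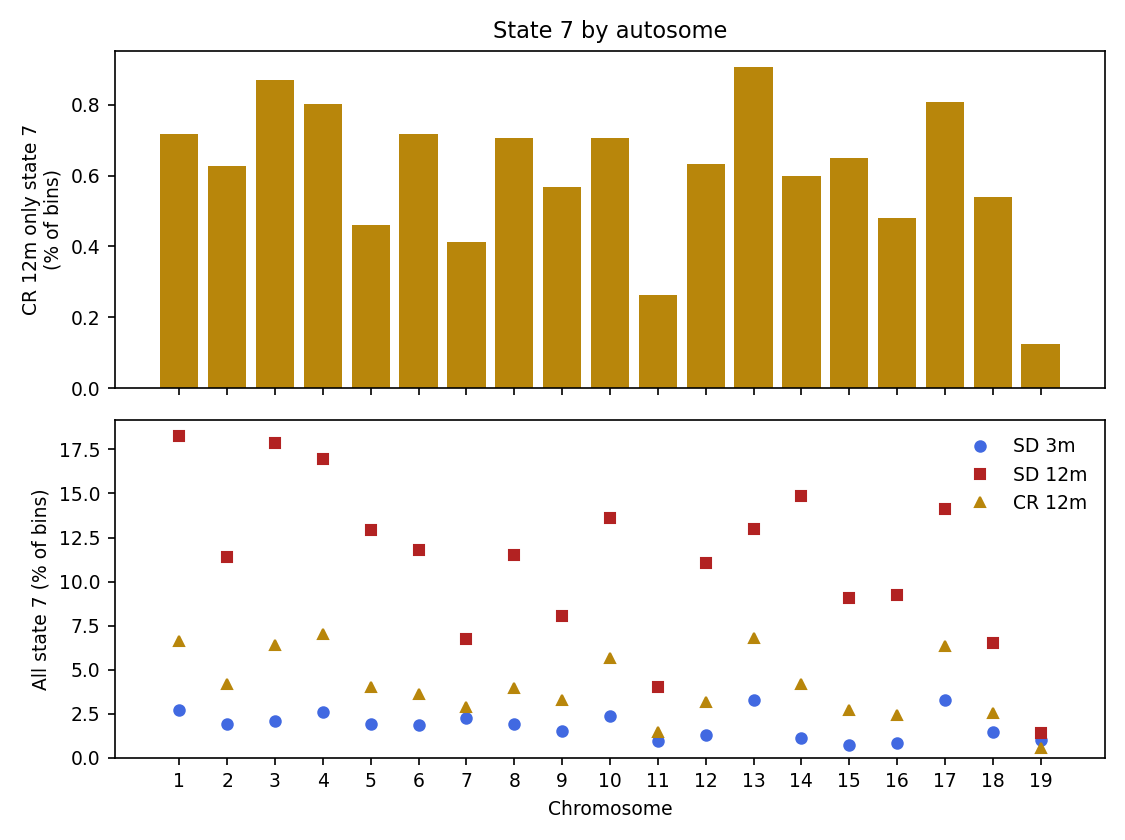
State 7 on the 19 autosomes (x axis). The upper panel gives the percent of bins in state 7 in CR 12m and in neither SD group, from 0.124% on chromosome 19 to 0.907% on chromosome 13, and the lower panel the percent of bins in state 7 in SD 3m (circles), SD 12m (squares) and CR 12m (triangles), 1 merged segmentation each.

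The bins were also unevenly placed within chromosomes. Of 2454 blocks of 1 Mb, 957 (39.0%) held none, and the 245 richest blocks held 50.9% of them. Those 245 blocks had a median of 1 TSS against 7 over all blocks, and a median of 48.5% of their bins in state 7 in SD 12m against 2.30%. The richest block was chr18:18000001-19000000 with 525 such bins, 10.5% of its bins, and 0 TSS. Next were chr13:82000001-83000000 with 394 bins, chr15:46000001-47000000 with 366, chr9:5000001-6000000 with 349 and chr12:48000001-49000000 with 310. In these 5 blocks state 7 covered from 46.7% to 72.1% of bins in SD 12m and from 24.4% to 40.9% in CR 12m, so the bins in CR 12m only lay among larger amounts of state 7 that both 12 months groups or SD 12m alone had.

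The state these bins had in the SD groups was mostly the unmarked one. State 8 in both SD groups accounted for 70653 bins (91.1%), against 46.3% of all autosomal bins. All autosomal bins include those in state 7 in a SD group, which the rule bars. Without them 10787300 bins remain, of which 5695598 were in state 8 in both SD groups. Of the autosomal bins in state 8 in both, 1.24% were thus in the set. State 8 in SD 3m followed by the Polycomb state 6 in SD 12m accounted for 5099 bins (6.57%), against 7.48% of all autosomal bins. Of the 920917 autosomal bins that went from state 8 to state 6 between SD 3m and SD 12m, 0.554% were in state 7 in CR 12m, while 42.2% were in state 6 and 57.2% in state 8 there. By stretches, 6331 (89.7%) were wholly in state 8 in both SD groups and 351 were wholly in state 6 in SD 12m. States 1 to 5 in SD 12m accounted for 943 bins (1.22%) in 166 stretches. State 1 in SD 12m held 0.599% of the set, against 0.378% of all autosomal bins. State 2 held 0.0168% against 0.452%, and state 3 held 0.00516% against 10.6%. State 4 held 0.340% against 9.82%, and state 5 held 0.254% against 2.75%. States 2 to 5 in SD 12m were thus under-represented in the set and state 1 was not.

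Some rarer histories had higher rates. Changes of state between groups compare different mice. A total of 868 autosomal bins went from state 5 to state 1 between SD 3m and SD 12m, and CR 12m had state 7 at 149 of them (17.2%). The same held for 18 of the 248 bins that went from state 8 to state 1 (7.26%) and for 63 bins (4.49%) of those that went from state 1 to state 8. Bins of a stretch are not independent, and few stretches held many of these bins. Of the 149 bins, 92 lay in 4 stretches in Ppm1h and in Cmss1 and Filip1l, and 9 of the 18 lay in 1 of the Ppm1h stretches. Both SD groups had state 1 at 32458 bins, and 254 of these (0.783%) had state 7 under restriction, while 75.9% stayed in state 1 and most of the others took state 4 (8.83%) or state 2 (8.54%). Of the 1046367 bins in enhancer state 3 in both SD groups, 0 were in state 7 in CR 12m. As the labels of the same 3 segmentations chose the bins, these rates describe the rule and are no test of it.

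**Figure D2:**
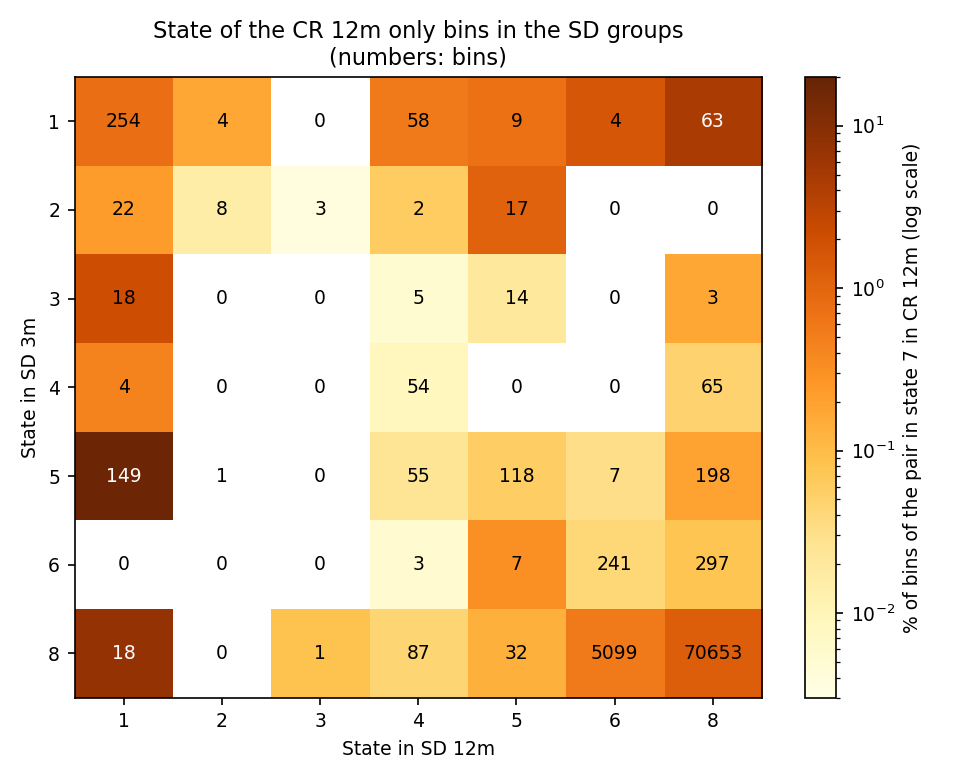
States in SD 3m (rows) and SD 12m (columns) of bins that had state 7 in CR 12m only. Numbers count such bins (70653 in state 8 in both, 5099 from state 8 to state 6), and colour gives, on a log scale, the percent of all autosomal bins with that pair of states that were in state 7 in CR 12m, for pairs of at least 200 bins. White fields held 0 such bins or had fewer than 200 bins in all.

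The stretches were short. Their median length was 1400 bp, their mean 2197 bp and the longest measured 30.4 kb. 785 stretches were a single bin, 787 were 5 kb or longer and held 37.2% of the bins, and 98 were 10 kb or longer. Stretches in state 7 in SD 12m only had a median of 3800 bp and a longest of 82.6 kb, and those in SD 3m only a median of 1400 bp and a longest of 30.8 kb.

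At the resolution of 200 bp, most stretches bordered on state 7 that a SD group had too, whereas with the most frequent state of 10 kb windows the joined share was 34.5%. In bins of 200 bp, 4802 stretches with 64.5% of the bins were joined, meaning that the unbroken state 7 stretch of CR 12m around them also held a bin in state 7 in SD 3m or SD 12m. The other 2259 stood alone. Of the 15749 autosomal state 7 stretches of CR 12m, 9286 held no bin found in CR 12m only, 4204 (26.7%) held some and 2259 (14.3%) consisted of nothing else. In SD 12m, by the same count, 12740 of 25079 state 7 stretches (50.8%) stood alone. These 2 shares are not like for like, as each depends on how much state 7 the other groups hold. State 7 covered 11.9% of autosomal bins in SD 12m and 4.35% in CR 12m. Within the 4204 mixed stretches, whose median length was 6400 bp, a median of 25% of the bins were in state 7 in CR 12m only. Of the 14122 edges of the CR 12m only stretches, 61.4% met state 8 in CR 12m and 36.9% met state 7, among the latter 4543 in state 7 in SD 12m but not SD 3m, 522 in SD 3m but not SD 12m and 147 in all 3 groups. State 7 on both sides was found for 410 stretches, with a median of 4400 bp, so that they joined 2 pieces of state 7 into 1. The joined share of bins ranged from 37.1% on chromosome 19 to 74.8% on chromosome 1.

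As defined here, every joined stretch has an edge in state 7 in CR 12m and no stand-alone stretch does. This fixes the CR 12m share at 0% next to stand-alone edges, but not the SD shares there. Next to joined edges it holds the CR 12m share up, and such edge bins are in state 7 in a SD group as well. Stand-alone stretches were seldom single bins (55 of 2259, against 730 of the 4802 joined ones) and had a median of 1600 bp against 1200 bp. They still lay near state 7 of the SD groups, with a median of 7000 bp from edge to nearest such bin, and 77.7% of them lay within 20 kb. Just outside joined stretches, at 0.2 kb, 49.0% of bins were in state 7 in SD 12m and 54.3% in CR 12m. At 20 kb these values were 42.2% and 16.4%. Around stand-alone stretches the share in SD 12m was 1.24% at 0.2 kb and 31.1% at 20 kb, and that in CR 12m was 9.12% at 20 kb. Both shares at 20 kb were above those of all autosomes, 11.9% and 4.35%.

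**Figure D3:**
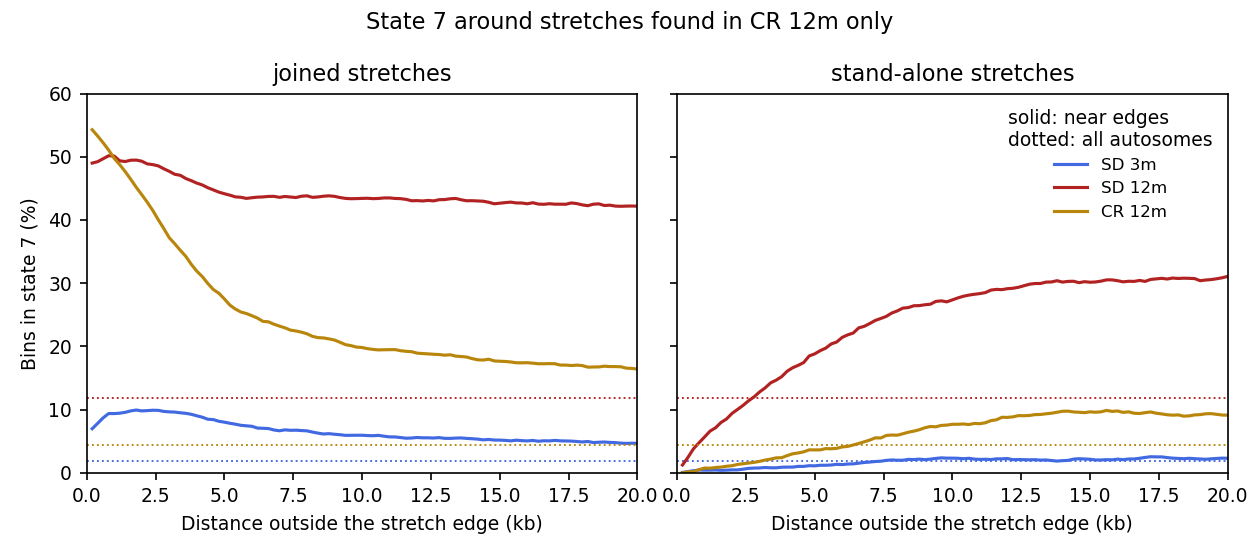
Percent of bins in state 7 (y axis) at 0.2 to 20 kb outside the edges of stretches found in CR 12m only (x axis), for joined stretches (left) and stand-alone stretches (right). Solid lines give SD 3m, SD 12m and CR 12m and dotted lines their share over all autosomes. SD 12m falls from 49.0% to 42.2% around joined stretches and climbs from 1.24% to 31.1% around stand-alone ones. By definition CR 12m is at 0% next to stand-alone edges, and each joined stretch has state 7 in CR 12m on at least 1 side. The SD 12m value next to stand-alone edges is not fixed by the definition.

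Nearness to SD state 7 was measured for all bins as well. The bins in state 7 in CR 12m only had a median distance of 2400 bp to the nearest bin in state 7 in SD 3m or SD 12m, and 91.9% were within 20 kb. For all autosomal bins in state 8 in both SD groups the median was 37600 bp and 39.0% were within 20 kb. Among these state 8 bins, the share in state 7 in CR 12m was 9.76% directly beside SD state 7. It was 3.28% at 2.2 to 5 kb, 0.858% at 10.2 to 20 kb, and 0.0449% beyond 100 kb, where CR 12m had 800 of 1781980 bins in state 7. The share was thus lower in each further distance class. Neighbouring bins share reads and the smoothing of the model, so they are not independent.

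**Figure D4:**
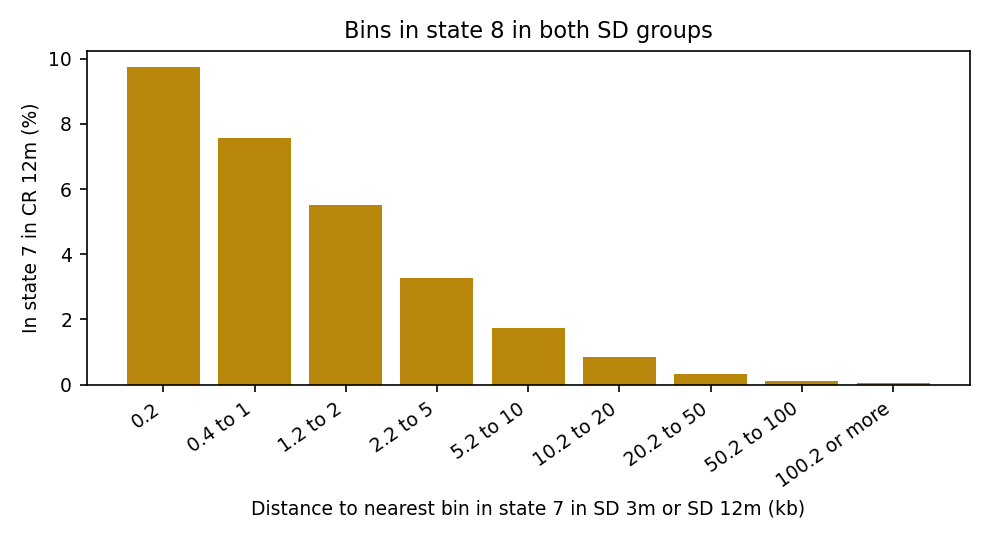
Of the autosomal bins in state 8 in both SD groups, the percent in state 7 in CR 12m (y axis) by distance to the nearest bin in state 7 in SD 3m or SD 12m (x axis, kb). The bars fall from 9.76% at 0.2 kb to 0.0449% beyond 100 kb.

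Sequence was not used to choose the bins. G and C made up 38.0% of their bases, against 41.9% over all autosomal bins, and they were lower than their own chromosome on 19 of 19 autosomes. State 7 at 12 months was close to them, at 37.3% for bins in state 7 in both 12 months groups but not SD 3m, and 37.4% for SD 12m only. State 7 that SD 3m had too was higher, at 38.9% in SD 3m and SD 12m, 39.5% in all 3 groups, 39.9% in SD 3m and CR 12m and 40.2% in SD 3m only. Bins in state 8 in all 3 groups had 41.1%. The difference of well under 1 percentage point from SD 12m only had the same sign on 19 of 19 autosomes, and that from both 12 months groups on 15 of 19. CpG dinucleotides numbered 5.75 per kb, against 8.51 over all bins, 5.17 in both 12 months groups and 4.90 in SD 12m only.

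Masked repeats made up 41.0% of bases, against 33.5% over all autosomal bins, 39.4% for bins in state 8 in all 3 groups, 38.7% for state 7 in SD 12m only and 44.9% for state 7 in all 3 groups. They were above their own chromosome on 19 of 19 autosomes and above SD 12m only on 16 of 19. Against state 7 of both 12 months groups (41.7%) the sign was mixed, higher on 7 autosomes and lower on 12. The repeat content differed within the set. Bins of joined stretches had 44.2% repeats and those of stand-alone stretches 35.3%, close to the autosomal value. Of the bins of joined stretches 14.6% were wholly repeat, against 6.76% in stand-alone stretches. Bins that had been in state 8 in SD 3m and state 6 in SD 12m had 33.0% repeats.

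Genes were scarce around these bins. Gene bodies, each taken as the gene's longest curated transcript in RefSeq, over 24963 autosomal genes, held 20.3% of their bases against 41.5% of all autosomal bases, with exons at 0.854% against 2.74%. The gene body share was below that of the chromosome on 19 of 19 autosomes. It was above the 14.1% of state 7 in both 12 months groups on 18 of 19 and above the 17.5% of SD 12m only on 13 of 19. State 7 in SD 3m and SD 12m but not CR 12m had 22.0%, state 7 in all 3 groups 30.4% and state 8 in all 3 groups 35.8%. The median distance to a TSS was 201 kb, against 58.1 kb over all bins, 292 kb for both 12 months groups and 279 kb for SD 12m only. Stand-alone stretches had 25.2% of their bases in gene bodies and joined ones 17.6%.

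**Figure D5:**
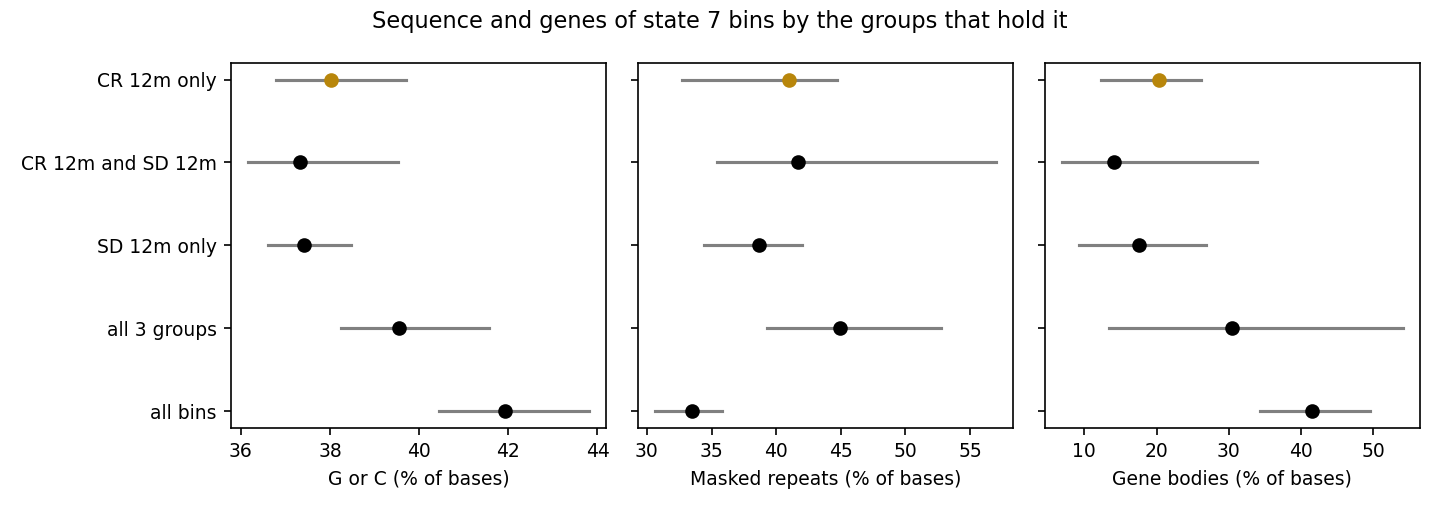
Percent of G or C, of masked repeats and of gene bodies (x axes) in autosomal bins in state 7 in CR 12m only (gold), in CR 12m and SD 12m, in SD 12m only and in all 3 groups, and in all bins. Points give the value over all autosomes and lines the range over the 19 autosomes. The gold points lie at 38.0%, 41.0% and 20.3%.

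The longest stretches illustrate these settings. The longest, at chr2:169863401-169893800, covered 30.4 kb inside Tshz2, which encodes a teashirt family zinc finger transcription factor. It stood alone, 30.6 kb from any bin in state 7 in a SD group. Of its 152 bins, 128 were in state 8 in both SD groups. It differed from the bulk of the set in base composition, with 46.9% G and C, 562 CpG dinucleotides and 16.3% repeats, and 3061 of its bases were exonic. The sixth, 17.6 kb at chr8:114501601-114519200, was alike in standing alone inside an intron of Wwox, an oxidoreductase gene across a common fragile site, with 46.6% G and C, 19.01% repeats and all 88 bins in state 8 in both SD groups.

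Of the stretches next in length, 3 lay between genes, at chr8:99794001-99814200 (20.2 kb), chr18:18261601-18281400 (19.8 kb) and chr2:46463201-46482200 (19 kb). Each was joined on 1 side to state 7 that SD 12m had too. G and C in them ranged from 34.9% to 37.5%, and every bin was in state 8 in both SD groups. The seventh, 17.0 kb at chr13:76530401-76547400, was of this joined kind within an intron of Mctp1, a calcium-binding C2 domain protein of membranes. The eighth, 15.4 kb at chr12:23136201-23151600 over the non-coding gene Gm9292, stood alone at 142.4 kb from SD state 7 and was 62.4% repeat. Behind it, both 14.8 kb and joined to SD 12m state 7, were at chr10:129544401-129559200 over the olfactory receptor pseudogene Olfr793-ps1 and at chr18:18066401-18081200 between genes. Another stretch of 14.8 kb, singled out after its values were seen, at chr3:78644801-78659600, was the one of this length with 65 of its 74 bins in the Polycomb state 6 in SD 12m.

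Of the 24963 autosomal genes, 771 (3.09%) had a bin in state 7 in CR 12m only in the gene body, 184 (0.737%) had one within 2 kb of the TSS and 69 (0.276%) had one at the TSS itself. The protein-coding genes with the most such bins were very long genes, as counting bins favours long genes. Ccser1, a coiled-coil serine-rich protein gene at a fragile site, held 70.8 kb of its 1203 kb. Lrp1b, a large receptor of the LDL receptor family, held 51.4 kb and Csmd3, a transmembrane protein with CUB and sushi domains, held 48.6 kb. Wwox held 46 kb. Next were the synaptic adhesion gene Lrrc4c (37.6 kb), Nkain2 (37.2 kb), the carboxypeptidase gene Agbl4 (36.4 kb), the neurexin family gene Cntnap2 (36.2 kb) and Mctp1 (36.2 kb). These values count whole bins that touch the gene. Apart from Wwox, the genes named here had the TSS in state 6 or 8 in all 3 groups. Wwox had its TSS in state 1 in both SD groups and in state 4 in CR 12m.

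Among the 69 genes with the TSS in such a bin, 42 had the TSS in state 8 in both SD groups, 14 had it in state 1 in both, 5 went from state 8 to state 6, 3 were in state 6 in both and 5 had other pairs. In SD 3m and SD 12m, 47 and 45 of the 69 were in state 8, against 7088 and 5575 of all 24963 autosomal TSS. State 1 held 14 and 15 of the 69, against 7710 and 7644 of all. State 8 was thus over-represented among the 69 and state 1 was not. Olfactory receptor genes, which encode odorant receptors of the nasal epithelium and are silent in liver, made up 18 of the 69 (26.1%), against 4.48% of all autosomal genes. The longest stretches over a TSS of this kind held Olfr141 (14.8 kb), Olfr1230 and Olfr1231 together (10.6 kb), Olfr938 (9.8 kb), Olfr308 (8.4 kb) and Olfr1183 (8.2 kb), all with every bin in state 8 in both SD groups. The vomeronasal receptor genes, which encode pheromone receptors, and the genes with a Zfp symbol, mostly zinc finger transcription factors, gave 5 each (7.25%), against 1.43% and 1.59% of all autosomal genes. Their earlier states differed. The vomeronasal TSS were all in state 8 in both SD groups, while most of the Zfp ones, among them Zfp850, Zfp184 and Zfp493, were in state 1 in both. Pcdhga11 and Pcdhgb7, neighbouring genes of the clustered protocadherin adhesion proteins, shared a stretch of 9.4 kb whose 47 bins were all in the Polycomb state in both SD groups, with 47.3% G and C and 324 CpG dinucleotides.

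For gene lists the count within 2 kb of the TSS was read beside the 0.737% of all autosomal genes. It was 41 of 1119 olfactory receptor genes (3.66%), 15 of 356 vomeronasal receptor genes (4.21%), 22 of 397 genes with a Zfp symbol (5.54%), 2 of 56 keratin-associated protein genes (3.57%) and 3 of 1090 microRNA genes (0.275%). The first 3 families had more CR 12m state 7 of any kind near their TSS as well, at 13.0%, 15.2% and 16.4% of genes, against 2.38% of all genes. Among the genes with any CR 12m state 7 within 2 kb, the share with a bin found in CR 12m only was 28.1% for olfactory receptors, 27.8% for vomeronasal receptors, 33.8% for Zfp genes and 31.0% over all genes.

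The lists that follow the known response of liver to diet held none. Counts within 2 kb were 0 of 23 genes of the fasting and caloric restriction response, which include the nuclear receptor Ppara, the hormone Fgf21 and the gluconeogenic enzyme Pck1. They were also 0 of 18 genes of lipid synthesis, 0 of 18 clock genes, 0 of 14 genes of the growth hormone and insulin axis and 0 of 18 genes of inflammation and interferon. Of the 89 distinct genes in these 5 lists, 86 had the TSS in states 1 to 5 in CR 12m, 1 in state 6, 2 in state 8 and 0 in state 7. At the share of all autosomal genes, 0.656 genes would be counted among 89, so a count of 0 does not set the lists apart. The major urinary protein genes gave 0 of 22 and the cytochromes P450 gave 0 of 105. Within gene bodies, where 3.09% of all autosomal genes had such a bin, Grb10 was the single gene of the 5 diet lists with one. Grb10, an adaptor that binds the insulin receptor, held 0.6 kb of its 106.9 kb, with its TSS in state 6 in all 3 groups.

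The 14 genes whose TSS was in state 1 in both SD groups and in state 7 in CR 12m were 0.163% of the 8610 autosomal TSS in state 1 or 2 in both SD groups. Over all autosomal genes, 0.276% had the TSS in a bin in state 7 in CR 12m only. Of the 8610, 71.0% were in state 1 in CR 12m, 13.7% in state 2, 8.87% in state 3, 5.73% in state 4 and 0.256% in state 8. The same count turned to SD 12m gave 24 of 7642 TSS (0.314%) and turned to SD 3m gave 17 of 7415 (0.229%), so TSS in a promoter state in 2 groups and in state 7 in the remaining one were found for each group.

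The widest of these promoter changes held the TSS of Casp1 and of Casp4. Casp1 encodes the protease of the inflammasome that matures interleukin 1 beta, and mouse Casp4, also called caspase-11, encodes the protease that senses cytosolic lipopolysaccharide. Both TSS, 10.3 kb apart, were in state 1 in SD 3m and in SD 12m. In CR 12m a single unbroken stretch of 57 bins in state 7 at chr9:5298401-5309800 (11.4 kb) ran over both TSS and the 51 bins between the 2 TSS bins. In SD 3m 18 of the 57 bins were in state 1 or 2 and 36 in the enhancer-type state 5. In SD 12m 12 were in state 1 or 2, 17 in states 3 to 5 and 28 in state 8, these 28 all lying between both TSS. Thus the middle of this region had no detected mark in SD 12m, while both ends were in states 1 to 5 in that group.

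In CR 12m 3 bins of state 1 followed this stretch inside Casp4, and then a further stretch of 4.6 kb in state 7 at chr9:5310401-5315000, of whose 23 bins SD 3m had 13 in states 1 to 5 and SD 12m had 9. Before the stretch, SD 12m had 9 bins (1.8 kb) in state 7, of which 0 were in state 7 in CR 12m. The pieces of sequence before both TSS, printed above, hold 0 and 1 CpG. Ptprc and Adgre1, expressed in leukocytes and macrophages that also express Casp1 and Casp4, were in state 8 in CR 12m as given above, with Adgre1 already in state 6 in SD 12m. Among all 12 marker genes of cells other than hepatocytes, 5 had an active label (states 1 to 5) in SD 12m and 5 had one in CR 12m, and the B cell gene Cd79a (state 4), the T cell gene Cd3e and the Kupffer cell gene Clec4f (both state 6) had the same label in all 3 groups. The part of leukocyte number in the Casp1 and Casp4 result was not tested, and in bulk liver fewer cells of a type and less of a mark per cell cannot be told apart.

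At the other TSS of this kind the stretches were shorter. The stretch at 6820408C15Rik, an uncharacterised protein-coding gene, measured 2 kb with 10 of 10 bins in state 1 in SD 3m and 7 in SD 12m. That of Zfp850, a zinc finger gene, measured 2 kb too, with 10 of 10 and 8 bins in state 1 and 65 CpG dinucleotides. Lrrcc1, a centrosomal protein, had 1.6 kb that stood alone 57 kb from SD state 7, with 8 of 8 bins in state 1 in SD 3m and 6 in SD 12m. Zfp184 had 1.2 kb, and Cep128, a protein of the centriole appendages, had 1 kb with 5 of 5 bins in state 1 in both SD groups. Stx11, a syntaxin of cytotoxic granule release, had 0.6 kb with 3 of 3 bins in state 1 in both SD groups, 194.8 kb from SD state 7. Zfp493 had 0.6 kb and the transcribed pseudogene Gm16386 0.4 kb. Among these 8 stretches G and C ranged from 43.2% to 60.3%, against 36.2% in the stretch of Casp1 and Casp4. All bins in state 1 or 2 in both SD groups and in state 7 in CR 12m, 288 in number, had 19.3 CpG per kb, and 39.3% of their bases lay within 2 kb of a TSS. Bins in state 1 or 2 in all 3 groups had 49.1 CpG per kb and 84.8% of bases within 2 kb of a TSS. The 288 bins fell in 93 stretches with a median of 600 bp, of which 15 held a TSS and 62 overlapped a gene.

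Away from TSS, the stretches with the most bins in state 1 or 2 in SD 12m, singled out after their values were seen, lay in introns of a few genes. At chr16:57388201-57398400, in the overlapping genes Cmss1 and Filip1l, a stretch of 10.2 kb had 46 of 51 bins in state 1 or 2 in SD 12m and 31 in state 5 in SD 3m. In Ppm1h, a protein phosphatase gene, 3 stretches at chr10:122736801-122744600, chr10:122873201-122876600 and chr10:122879201-122883200 had 39 of 39, 17 of 17 and 18 of 20 bins in state 1 in SD 12m. In SD 3m these had 39, 8 and 20 bins in state 5. These 4 stretches were joined to state 7 that a SD group had too, held 0 TSS and had from 44.9% to 46.6% G and C. They held 92 of the 149 bins (61.7%) that were in state 5 in SD 3m, in state 1 in SD 12m and in state 7 in CR 12m, a set with 95.3% of its bases in gene bodies and 16.2% repeats. For these 92 bins each of the 3 groups had a different label.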

How the data were processed

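ChIP-seq reads of 4 histone marks from formalin-fixed, paraffin-embedded liver were processed by the authors. Per the submitters' processing notes, reads were aligned to mm10 with BWA 0.6.2-r126 and handled with SAMtools 0.1.18. The authors merged the libraries of each group per mark, binarized them in bins of 200 bp and assigned 1 of 8 states with ChromHMM. The deposited values are these state labels, a category per bin and not a signal, so the read depth behind a label is unknown. SD 6m was not analysed here.

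The rule (state 7 in CR 12m and in neither SD 3m nor SD 12m, autosomes) was applied to the 3 segmentations as deposited, in Python 3.11.15 with numpy 2.4.6 and pandas 2.3.3. Figures were drawn in matplotlib 3.10.9. Functions were tested on simulated segmentations. Bases, masked repeats and genes came from RefSeq GRCm38.p6, with 1 TSS for the longest curated transcript of each of 26089 genes, 24963 of them autosomal. Bins with an unassembled base were left out of base composition. Stretches named by rule were the 10 longest, and the others named were chosen after their values were seen. Genes named were the 10 whose TSS lay in the longest stretches, the 10 protein-coding genes with most such bins, and the 10 with the longest stretches among those with the TSS in state 1 or 2 in both SD groups. Members, gene lists and naming rules were chosen with earlier results of these data known. A gene, and a stretch with its sequence, that these rules name are not reported here. With 1 segmentation per group the labels allow no test across mice, and single libraries were not analysed here.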

Additional observations from a re-analysis of the deposited data

Results flagged for a closer look

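Chromosome X lay outside the rule. On it 3039 bins (0.355%, Wilson 95% interval from 0.343% to 0.368%, which covers the counting of bins only) were in state 7 in CR 12m and in neither SD group, in 320 stretches. Of these bins 48.0% were in state 8 in both SD groups and 48.4% were in the Polycomb state 6 in SD 12m, against 91.1% and 6.90% on the autosomes. The shares of states 6 and 8 over all bins of chromosome X are not given here. These values therefore do not set the bins apart from the rest of X. The difference between X and the autosomes was not tested.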

How the results depend on the processing

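Across 40 recomputed values under 6 alternatives, 18 stayed within the Wilson 95% interval of the value, or within 1.5 times for the count of genes, and 22 did not. The intervals count bins and are narrow. For G and C, repeats and gene bodies they treat each bin as wholly inside or wholly outside the class. They therefore do not measure the spread of a share of bases. The share of autosomal bins was 0.612% with chromosome X added, 0.583% with stretches of at least 1 kb, 0.574% with state 8 required in both SD groups, 0.458% more than 1 kb from SD state 7, 0.648% without the first 3 Mb of chromosomes and unassembled bins, and 0.466% for the most frequent state of 10 kb windows. The share in state 8 in both SD groups was 89.5% with X and 90.1% more than 1 kb from SD state 7. The joined share was 63.7% with X, 63.7% with stretches of at least 1 kb, 66.3% with state 8 in both SD groups and 34.5% in 10 kb windows. Repeats were 41.5% with X, 40.6% with stretches of at least 1 kb, 41.9% with state 8 in both, 39.3% more than 1 kb away and 43.9% in 10 kb windows. Gene bodies were 19.1% with state 8 in both, 21.1% more than 1 kb away and 19.6% in 10 kb windows. Genes with the TSS in such a bin numbered 42 with state 8 in both, which leaves out TSS in a promoter state by construction, and 39 in 10 kb windows. The causes of the other changes were not tested. G and C ranged from 37.8% to 38.0% over the 6 alternatives, within an interval that does not measure the spread of a share of bases. No paired analysis was possible because each group has 1 segmentation of merged libraries and no result comes from a test.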
